A study of Mus musculus with 15 samples.

Results

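Oxidative phosphorylation genes encode the nuclear subunits of the 5 enzyme complexes of the mitochondrial inner membrane. The group was taken by symbol from the protein-coding genes on nuclear chromosomes in the RefSeq annotation of mm10. Symbols of complex I begin with Nduf, a subunit letter and a number, and those of complex II are Sdha to Sdhd. Symbols of complex III begin with Uqcr, of complex IV with Cox4 to Cox8 and of complex V with Atp5. This gave 87 of 21774 protein-coding genes, with 40 in complex I, 4 in complex II, 8 in complex III, 18 in complex IV and 17 in complex V. Genes were asked for an H3K27ac peak within 2 kb of a start site, which is called a promoter peak here.

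Complexes I to IV pass electrons from NADH and succinate to oxygen, complexes I, III and IV pump protons as they do so, and complex V uses the proton gradient to make ATP. Most subunits are housekeeping proteins, but several small complex IV subunits exist as tissue isoforms, with Cox6a2, Cox7a1 and Cox8b known from heart and skeletal muscle. H3K27ac is an acetyl mark on histone H3 at active promoters and enhancers, and it is a mark of chromatin, not a measure of RNA or protein.

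The study compared fusion-positive rhabdomyosarcoma (FP-RMS), a muscle-like soft tissue tumor driven by the fusion PAX3-FOXO1, that arose from different cells of origin in mice. The series held 15 CUT&RUN libraries, a method in which an antibody-tethered nuclease releases the DNA beside a mark, with 6 H3K27ac and 3 IgG libraries from MCP tumors and 3 of each from TCP tumors. MCP mice carried Myf6-Cre, which is active in myogenic cells, and TCP mice carried Tek-Cre, which is active in endothelial cells, and all tumors shared Cdkn2a(Flox/Flox), the PAX3-FOXO1 allele that the labels write as Pax(3P3F/P3F), and the R26-tdTom reporter. The values below come from the peak list of MCP H3K27ac replicate 5, which was called against an IgG library. The other libraries were not used here, so the values have no replicate check, no p-value was computed, and nothing is said on MCP against TCP tumors. The labels used here give no age of the mice.

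The list held 122375 peaks with a median of 13 fragments over the summit, so a gene without a peak is a gene at which no enrichment was detectable at this depth. Intervals on fragments are exact Poisson intervals, those on shares are Wilson 95% intervals over genes, and both cover counting error only. The peaks are numbered, and 584 numbers were absent from the list at 285 places. The window of 8 oxidative phosphorylation genes touched such a place, and they are named where their values are given. Of 14 myogenic marker genes, 3 had a promoter peak (Pax3, Tnnt3 and Myf6), while Myod1, Myog and Des were among the 11 without. Of 14 endothelial markers 1 had a peak (Cd34), and of 14 immune markers 2 did (Cd68 and Cd14). Most markers have start sites that are not CpG-rich, a class set by CpG ratio and GC content and defined below. Of all genes that are not CpG-rich 21% had a promoter peak, and among such markers 2 of 11 myogenic, 1 of 10 endothelial and 2 of 14 immune genes did. Of all CpG-rich genes 71% had one, and among such markers 1 of 3 myogenic and 0 of 4 endothelial genes did. With so few genes the markers do not check the labelled tissue here, and Pax3 and Myf6 are also loci of the engineered alleles.

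Promoter sequences of the isoforms show the contrast that runs through the group, since start sites differ widely in CpG dinucleotides. The runs below are the 250 bases before the RefSeq start site on GRCm38.p6, 5′ to 3′ on the strand of the gene, with each CpG in capitals. The muscle isoforms Cox7a1 (chr7:30183921-30184170, plus strand) and Cox8b (chr7:140900447-140900696, minus strand) held 4 and 1 CpG.
Cox7a1: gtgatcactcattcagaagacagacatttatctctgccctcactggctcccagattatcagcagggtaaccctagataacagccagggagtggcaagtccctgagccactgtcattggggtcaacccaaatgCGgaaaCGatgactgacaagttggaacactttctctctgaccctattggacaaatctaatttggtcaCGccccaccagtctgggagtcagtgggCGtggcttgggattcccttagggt
Cox8b: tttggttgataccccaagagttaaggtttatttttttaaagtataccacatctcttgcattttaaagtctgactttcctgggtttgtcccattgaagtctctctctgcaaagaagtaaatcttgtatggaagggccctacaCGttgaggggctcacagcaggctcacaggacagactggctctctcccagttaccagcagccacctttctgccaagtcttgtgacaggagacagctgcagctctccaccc
The ubiquitous paralogs Cox6a1 (chr5:115348959-115349208, minus strand) and Cox8a (chr19:7217617-7217866, minus strand) held 26 and 11 CpG.
Cox6a1: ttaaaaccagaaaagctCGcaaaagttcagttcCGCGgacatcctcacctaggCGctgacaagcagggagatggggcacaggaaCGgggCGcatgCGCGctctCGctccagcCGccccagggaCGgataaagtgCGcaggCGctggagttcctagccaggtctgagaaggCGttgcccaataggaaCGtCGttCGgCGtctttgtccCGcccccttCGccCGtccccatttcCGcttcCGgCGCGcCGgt
Cox8a: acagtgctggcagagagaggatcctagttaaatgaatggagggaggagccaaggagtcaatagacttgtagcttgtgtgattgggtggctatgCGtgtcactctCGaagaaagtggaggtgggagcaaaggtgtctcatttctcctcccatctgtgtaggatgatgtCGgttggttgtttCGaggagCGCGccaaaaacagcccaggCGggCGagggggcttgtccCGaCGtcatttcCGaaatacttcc
Cox7c, the complex IV gene with the strongest peak (chr13:86046796-86047045, minus strand), held 9 CpG.
Cox7c: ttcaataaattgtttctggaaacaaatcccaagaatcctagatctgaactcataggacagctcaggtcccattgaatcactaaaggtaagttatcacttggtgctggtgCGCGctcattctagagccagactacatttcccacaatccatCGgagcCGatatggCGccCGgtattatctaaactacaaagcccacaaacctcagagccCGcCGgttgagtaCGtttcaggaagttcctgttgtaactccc

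Promoter peaks were frequent at oxidative phosphorylation genes. A promoter peak lay at 70 of the 87 genes, which is 80.5% (70.9 to 87.4%). Over all protein-coding genes the share was 44.3%. Against the genes outside the group (44.2%) the difference was 36.3 percentage points (Newcombe 95% interval 26.7 to 43.3). The 70 genes held 186 different promoter peaks, with 16 genes at 1 peak, 19 at 2, 17 at 3 and 18 at 4 to 6. Ndufs1, Ndufb3 and Atp5h were among the genes with 6 peaks.

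The share differed with the CpG content of the start site. A start site was called CpG-rich when the kilobase about it had a GC content of at least 50% and an observed over expected CpG ratio of at least 0.6. In the group 77.0% of the genes were CpG-rich, against 46.6% of all genes. Of all CpG-rich genes 71% had a promoter peak, and of the others 21% did. Among the 67 CpG-rich genes of the group 61 had one (91.0%, 81.8 to 95.8%), and among the other 20 genes 9 did (45.0%). The difference from the CpG-rich genes outside the group was 20.2 percentage points (10.9 to 25.0).

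Many oxidative phosphorylation genes also shared their promoter window with the start of another protein-coding gene. This held for 29 genes of the group (33.3%, against 11.9% of all genes), and 27 of them had a peak. Of all genes with a shared window 81.5% had one. Examples with high fold enrichment were Ndufs3 beside Kbtbd4 and Uqcrb beside Gm10767. A peak in a shared window cannot be given to either gene. At the 58 genes alone in their window 43 had a peak (74.1%), against 39.3% of all such genes.

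**Figure D1:**
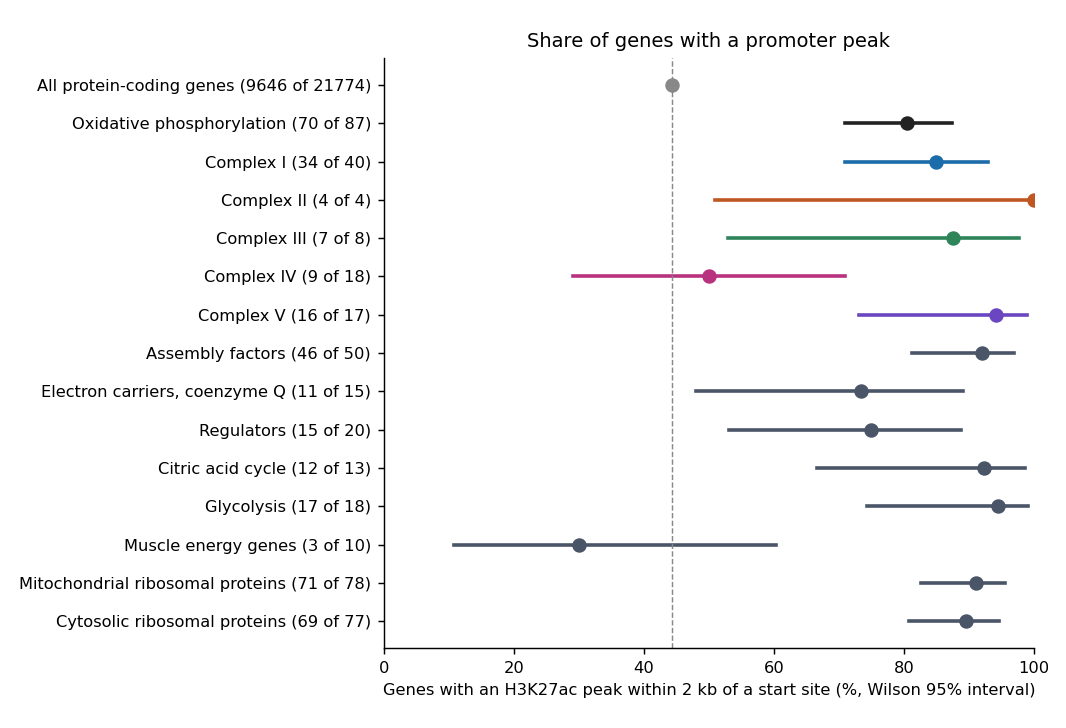
Share of genes with a promoter peak in the oxidative phosphorylation genes, in each complex and in related gene lists (points, percent), with Wilson 95% intervals as bars and all protein-coding genes as the dashed line. Complex IV (50.0%) lies near the dashed line at 44.3%. The muscle energy genes (3 of 10, 30%) lie below the line with an interval that holds it, and the other groups lie above it.

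By complex, 9 of the 17 genes without a promoter peak were in complex IV. In complex I, which takes electrons from NADH, 34 of 40 genes had a promoter peak (85.0%, 70.9 to 92.9%). All 4 genes of complex II, which oxidizes succinate, had one. In complex III, which passes electrons to cytochrome c, 7 of 8 did (87.5%, 52.9 to 97.8%). Its subunit Cyc1 has a symbol outside the rule, is not counted here, and had no promoter peak. In complex IV, which reduces oxygen, 9 of 18 genes had a promoter peak (50.0%, 29.0 to 71.0%). In complex V, the ATP synthase, 16 of 17 did (94.1%, 73.0 to 99.0%). The interval of complex IV overlapped those of complexes I, II and III. It ended below that of complex V, but the intervals of complexes IV and V overlapped in 7 of 10 alternative settings. Overlap of intervals does not show that shares are equal, and no interval of a difference between complexes was computed. Whether the complexes differ was therefore not tested.

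Of the 9 complex IV genes without a promoter peak, 7 were isoforms restricted to muscle or testis or regulated by oxygen. The other ones were the ubiquitous Cox6a1 and Cox8a. None of these 7 isoforms was CpG-rich, and of all genes that are not CpG-rich 21% had a promoter peak. The windows of Cox6a2 and Cox7a1 also touch places with absent numbers. Without the 7 isoforms, 9 of 11 complex IV genes had a promoter peak (81.8%, 52.3 to 94.9%), an alternative chosen after the values were seen. Why the isoforms lacked peaks was not tested.

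Fold enrichment, the height of a peak over its IgG background, was close to that of all genes. The strongest promoter peak of the 70 genes had a median fold enrichment of 7.46 (binomial 95% interval 6.51 to 8.67), against 7.24 over all genes with a promoter peak. Above the median of all genes lay 37 of the 70, above the upper quartile (9.47) 22, and below the lower quartile (5.65) 15. The covered sequence per window was also alike, with a median of 704.5 bp in the group and 688 bp over all genes with a peak.

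The highest fold enrichments were found in all 5 complexes. Ndufs3, a core subunit of complex I, was at 15.98 with 36 fragments over the summit (25.2 to 49.8). Cox7c, a small subunit of complex IV, was at 15.28 with 35 fragments (24.4 to 48.7). Sdhc, a membrane anchor of complex II, and Uqcrb, a ubiquinone-binding subunit of complex III, were both at 15.12 with 34 fragments (23.5 to 47.5). Also high were Uqcrh, the hinge protein of complex III, at 14.26, and the complex I subunit Ndufb1 at 13.65. Atp5g3, a gene of the membrane ring of complex V, was at 13.40, Ndufa10 at 12.54 and Ndufa4 at 12.42. Ndufa4 was named for complex I and is now counted with complex IV. The fragment intervals of these genes overlap, so their order is not resolved at this depth.

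The lowest fold enrichments of each complex were Atp5g1 at 3.38, Ndufs7 at 3.58, Sdhb at 4.45, Cox4i1 at 4.89 and Uqcrq at 5.78. Ndufs7 lies at a place with absent peak numbers. At 40 of the 70 genes the strongest peak had fewer than 20 fragments, and the range ran from 8 at Ndufb4b to 58 at Ndufa2.

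**Figure D2:**
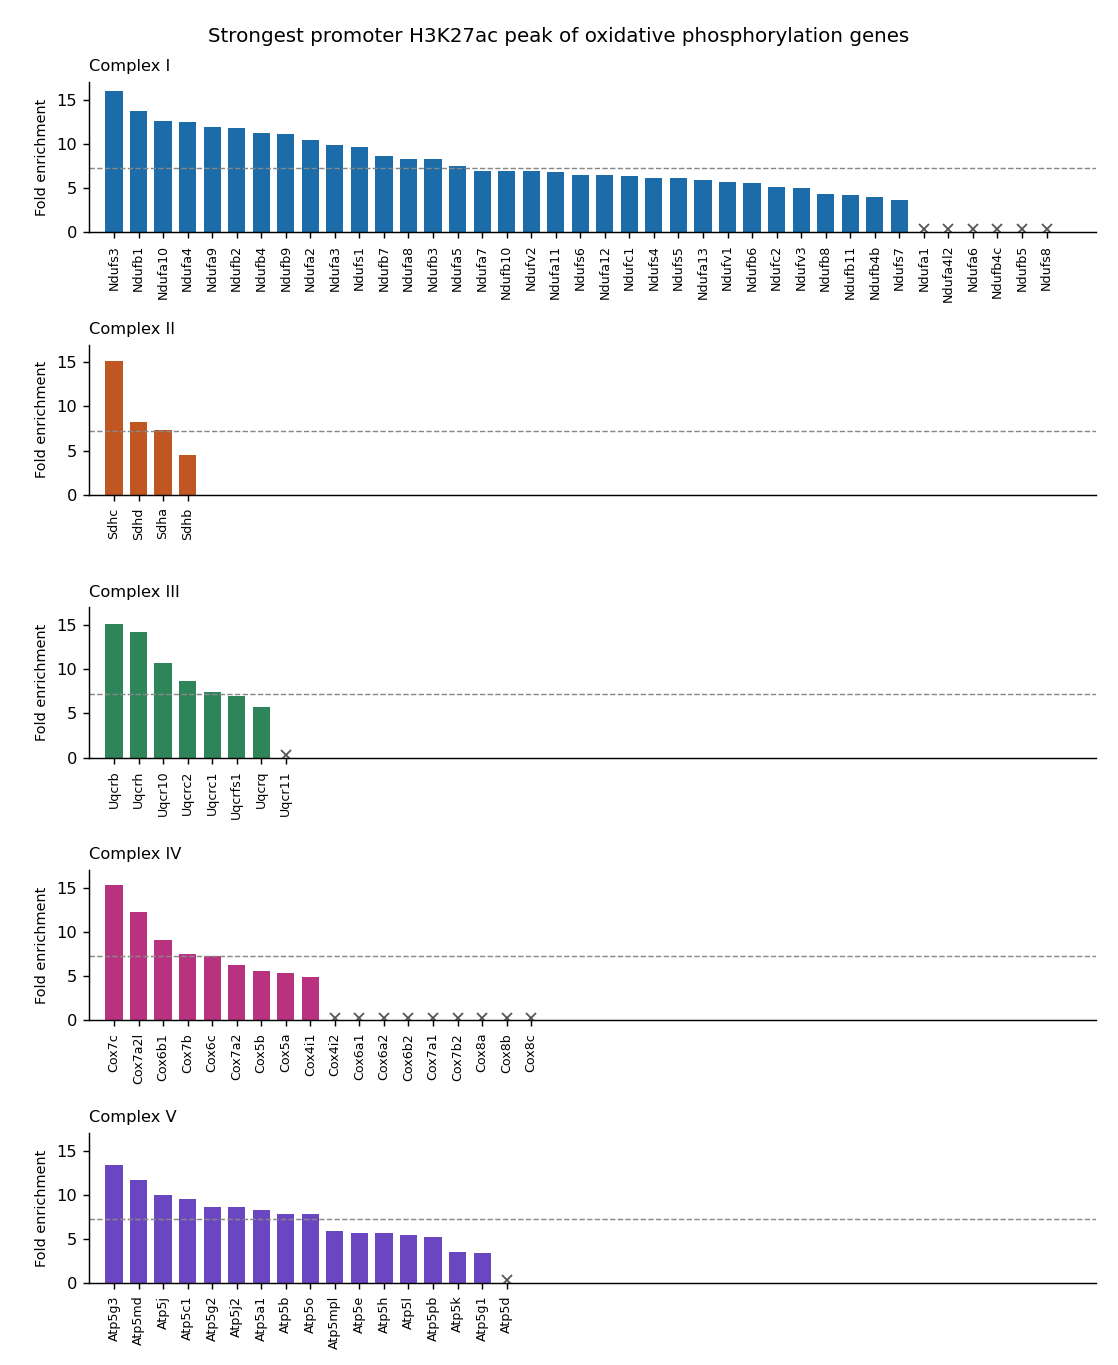
Fold enrichment of the strongest promoter peak of the genes (bars, 1 gene not shown), by complex and in falling order, with crosses for genes without a promoter peak and a dashed line at the median of all genes with a peak (7.24). Crosses stand at 9 of 18 complex IV genes and at 8 of the 69 genes of the other complexes.

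Within the catalytic parts the signal was uneven. Among the nuclear core subunits of complex I, Ndufs3 was at 15.98, Ndufs1 at 9.59, Ndufv2 at 6.88, Ndufv1 at 5.65 and Ndufs7 at 3.58, and Ndufs8 had no promoter peak. In complex II the flavoprotein Sdha was at 7.39 and the iron-sulfur subunit Sdhb at 4.45, below the anchors Sdhc (15.12) and Sdhd (8.29). In complex III the core proteins Uqcrc2 and Uqcrc1 were at 8.67 and 7.37, and the Rieske protein Uqcrfs1 at 6.94.

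In complex V the F1 head, the part that makes ATP, had peaks at Atp5c1 (9.53), Atp5a1 (8.24), Atp5b (7.80) and Atp5e (5.65), and none at Atp5d. The c subunit of the ring is made from 3 genes that give the same mature protein. Atp5g3 was at 13.40 with 30 fragments (20.2 to 42.8), Atp5g2 at 8.67 with 19 (11.4 to 29.7) and Atp5g1 at 3.38 with 18 (10.7 to 28.4). Fragment intervals of these 3 genes overlap, so the fold enrichments differ more than the fragments do. The window of Atp5g2 touches a place with absent numbers.

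The fold enrichment is computed with the IgG background in its denominator, so at equal fragments a higher background gives a lower value. At the strongest peak it was 2 or more fragments at 17 of the 70 genes (24.3%, against 22.1% of all genes with a peak) and at its lowest value at 33 (47.1%, against 47.8%). Genes with a background of 2 or more had 21 fragments at the median and a median fold enrichment of 5.64. Genes at the lowest background had 18 fragments at the median and a median fold enrichment of 8.24. Atp5g1 and Ndufa2 had the highest background, 4, and Ndufb2, Sdhb, Uqcrq and Cox7a2 were among those at 3. By fragments rather than fold enrichment, Ndufa2 (58 fragments, 44 to 75) and Ndufb2 (52, 38.8 to 68.2) led the group, with fold enrichments of 10.46 and 11.75.

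**Figure D3:**
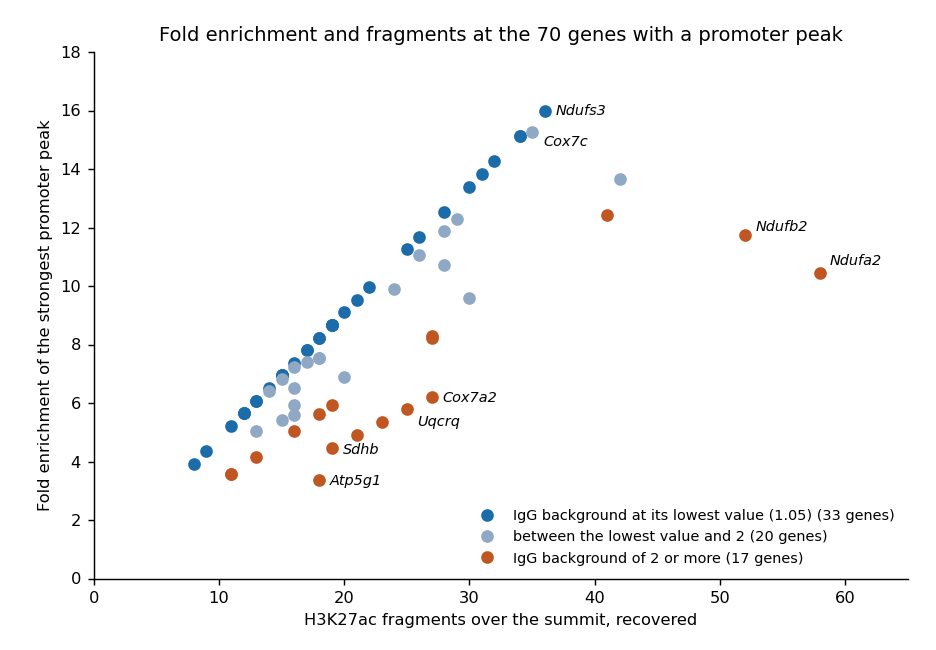
Fold enrichment of the strongest promoter peak against the recovered H3K27ac fragments over its summit at the 70 genes (points), colored by IgG background. Ndufa2 with 58 fragments lies at 10.46, below Ndufs3 with 36 fragments at 15.98, and the lower place of genes with a background of 2 or more at equal fragments follows from how the fold enrichment is computed.

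No promoter peak was listed at 17 genes. In complex I these were Ndufa1, Ndufa4l2, Ndufa6, Ndufb4c, Ndufb5 and Ndufs8, in complex III Uqcr11, in complex V Atp5d, and in complex IV Cox4i2, Cox6a1, Cox6a2, Cox6b2, Cox7a1, Cox7b2, Cox8a, Cox8b and Cox8c. The windows of Ndufa6, Ndufb5, Uqcr11, Cox6a2 and Cox7a1 touch a place with absent numbers (5 of the 17, against 5.48% of all genes), so a peak of theirs may be among the absent ones. Without genes at such places, 67 of 79 had a peak (84.8%).

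Of the 17 genes, Ndufa6 lay close to a peak just outside the window. Its nearest summit was 2.39 kb downstream and inside the gene, with a fold enrichment of 5.65. For Atp5d it was 4.34 kb downstream within Midn, and for Ndufs8 5.32 kb downstream. Farther away were those of Ndufb5 (27.3 kb) and Ndufa1 (63.1 kb), and that of Ndufb4c, a further copy of Ndufb4, was 79.5 kb away. Over the whole gene and 10 kb on either side, 7 genes of the group had no peak at all (Ndufa1, Ndufb4c, Ndufb5, Cox4i2, Cox6a2, Cox8b and Cox8c), and the same held for 38.4% of all genes.

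The muscle isoforms of complex IV had no listed promoter peak. A peak lay at 0 of 3 genes, Cox6a2, Cox7a1 and Cox8b, which allows a share of up to 56.1% by the Wilson interval. Of their ubiquitous paralogs, Cox6a1, Cox7a2 and Cox8a, 1 of 3 had one, so with so few genes the isoform classes are not resolved from each other.

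Pair by pair, the subunit 7a genes differed. Cox7a2 had 3 promoter peaks, and they were the only peaks within 30 kb of its start site. The strongest was at 6.22 with 27 fragments (17.8 to 39.3) over an IgG background of 3, and the others were at 6.08 and 5.35. Cox7a1 had none in its window, and its nearest listed summit was 9.39 kb downstream within Capns1. However, 2 numbers are absent from the 24.6 kb about its start site, so the value for Cox7a1 is uncertain. The strongest Cox7a2 peak is shown by its intron 1 part (chr9:79759383-79759639, minus strand, GRCm38.p6, CpG in capitals), since Cox7a2 is the only one of the 3 paralogs with promoter peaks, and it held 13 CpG in 257 bases.
Cox7a2: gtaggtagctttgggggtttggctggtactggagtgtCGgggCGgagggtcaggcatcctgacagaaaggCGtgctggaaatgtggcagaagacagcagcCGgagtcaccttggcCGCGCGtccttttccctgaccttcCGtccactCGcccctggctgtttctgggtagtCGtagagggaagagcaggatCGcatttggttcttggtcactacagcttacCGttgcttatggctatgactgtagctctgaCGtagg

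The subunit 8 genes did not differ by promoter peaks. Neither Cox8b nor Cox8a had one, with the nearest summits at 17.2 kb and 10.7 kb downstream. No numbers were absent near either gene. The Cox8a promoter printed above is CpG-rich (ratio 0.693 over the kilobase), as those of Cox6a1 (0.946) and Cox7a2 (0.765) are, whereas Cox8b (0.245), Cox7a1 (0.258) and Cox6a2 (0.266) are not.

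The subunit 6a genes could not be compared. Cox6a1 had no promoter peak and its nearest summit lay 8.36 kb downstream within Gatc. No peak was listed within 30 kb of Cox6a2, but 1 number is absent from the 305 kb of chromosome 7 that hold the gene.

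**Figure D4:**
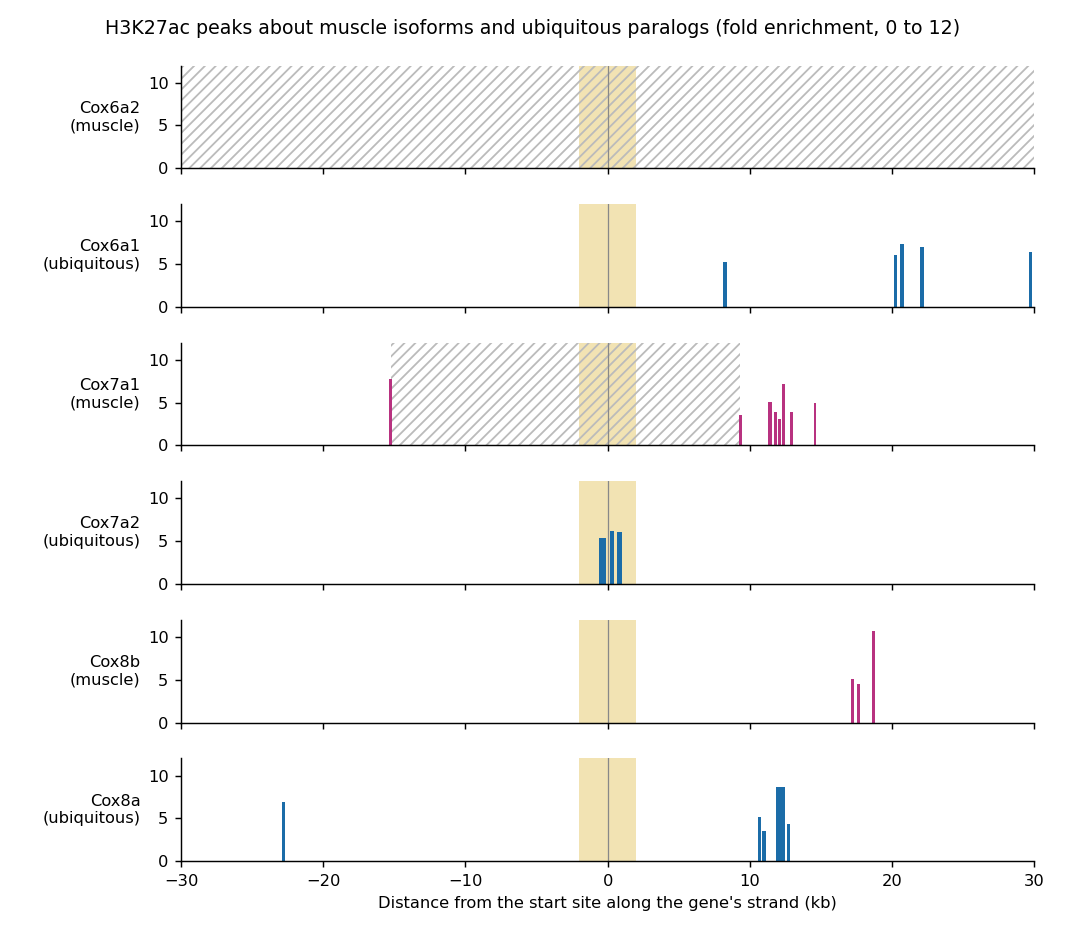
H3K27ac peaks within 30 kb of the start sites of the 3 muscle isoforms and their ubiquitous paralogs (bars, height is fold enrichment, at least 0.2 kb wide as drawn), with the promoter window of 2 kb either side shaded and stretches with absent peak numbers hatched. Only Cox7a2 has peaks in its window, and the windows of Cox6a2 and Cox7a1 lie in hatched stretches.

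Other isoforms were like the muscle isoforms in this respect. None of the testis isoforms Cox6b2, Cox7b2 and Cox8c had a promoter peak, while their somatic paralogs Cox6b1 and Cox7b were at 9.10 and 7.53 and Cox8a had none. The oxygen-regulated isoforms Cox4i2 and Ndufa4l2 had none, and their paralogs Cox4i1 and Ndufa4 were at 4.89 and 12.42. In all, 0 of 8 restricted isoforms had a promoter peak and none was CpG-rich, and 21% of all genes that are not CpG-rich had one. Of the paralogs, Cox6b1 and Cox7b fell outside the CpG-rich class and had peaks. Cox6b1 missed the class by GC content alone (49.45%), with a CpG ratio of 0.787, and Cox7b had a ratio of 0.482. Of the CpG-rich paralogs, Cox4i1, Ndufa4 and Cox7a2 had peaks, and Cox6a1 and Cox8a had none. Cox4i2 had 12 peaks within 30 kb but none within 10 kb of the gene, and the summit nearest to Cox7b2 was 108 kb away.

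Chromosome X carried 3 genes of the group. Ndufb11, a complex I subunit, was at 4.17 with 13 fragments, Cox7b was at 7.53 with 18, and Ndufa1 had no promoter peak. Of all genes on chromosome X 23.8% had one. On chromosomes 1, 6, 11 and 15, which hold the most peaks per Mb, 17 of 19 genes of the group had a promoter peak, against 2338 of 4679 genes in all (50.0%). On the other chromosomes 53 of 68 did, against 7308 of 17095 in all (42.8%). Without those chromosomes the group share was 77.9%.

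Peaks lay mostly downstream of the start site. At the 43 genes alone in their window and with a peak, the strongest summit was downstream at 35 (81.4%, 67.4 to 90.3%), against 66.4% of other genes of that kind. Its median distance was 503 bp (254 to 661), against 451 bp (418 to 471). Between 250 and 1250 bp downstream lay 67.4% of these summits, against 48.2% at other genes, and the same stretch upstream held 9.30% against 21.7%. Over all 70 genes the strongest summit was in intron 1 at 40, upstream at 17, in intron 2 at 6, in exon 1 at 5, and in exon 2 and intron 3 at 1 each. Among the highest, those of Cox7c, Sdhc and Uqcrb were in intron 1 and that of Ndufs3 in intron 2, while Uqcrh had its summit upstream.

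**Figure D5:**
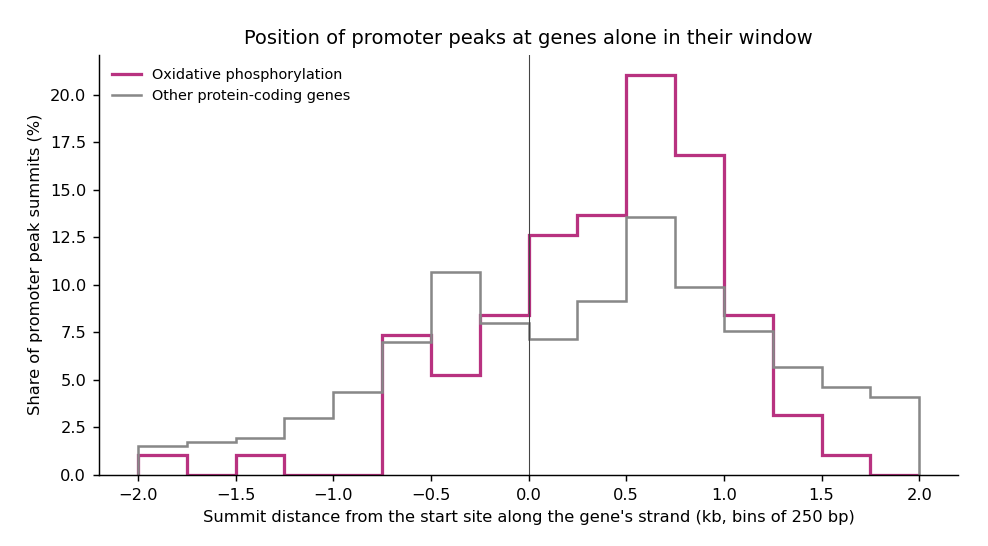
Share of promoter peak summits (percent) in bins of 250 bp from 2 kb before to 2 kb after the start site, along the strand of the gene, for oxidative phosphorylation genes and other protein-coding genes that are alone in their window. The group has its highest bins at 500 to 1000 bp downstream and few summits more than 750 bp upstream.

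Promoter sequences were searched for short motifs of factors known at mitochondrial and muscle genes. The RefSeq table held the 250 bases before to 50 after the start site for 70 of the 87 genes, and for 17492 genes in all. Genes without an entry included Sdhc, Cox8c, Uqcrc2, Cox6c, Uqcrb, Ndufs1, Atp5a1, Ndufa2, Cox6a2, Atp5mpl, Cox4i1, Ndufa4l2, Ndufb9, Ndufb4c, Uqcrq and Cox4i2. Matches were exact and on both strands, and none of the 8 motifs contains another.

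The NRF1 motif GCGCATG was in 13 of 70 promoters (18.6%, 11.2 to 29.2%), against 5.40% of all promoters and 8.69% of CpG-rich promoters. The ERR motif AAGGTCA, bound by estrogen-related receptors, was in 8 (11.4%, 5.91 to 21.0%), against 4.73% and 3.05%. The YY1 motif AGATGGC was in 12 (17.1%, 10.1 to 27.6%), against 6.95% and 7.97%. The ETS motif CCGGAAG, bound by GABP among others, was in 17 (24.3%, 15.8 to 35.5%), against 13.0% and 21.1%, so its share was near that of CpG-rich promoters. The CREB/ATF motif TGACGTC was in 7 (10.0%, 4.93 to 19.2%), against 4.35% and 6.90%. Among the 57 CpG-rich promoters of the group these motifs were, in this order, in 21.05%, 12.28%, 14.04%, 24.56% and 12.28%.

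The SP/KLF motif GGGCGG was in 28 of 70 (40.0%, 29.3 to 51.7%), against 49.2% of all promoters. Among CpG-rich promoters it was in 43.9% of those of the group and in 76.0% of all. The E-box CAGCTG, known from MYOD1, was in 6 (8.57%, 3.99 to 17.5%), against 17.5% of all, and Cox8b was among the 6. Among CpG-rich promoters the E-box was in 5.26% of those of the group and in 15.7% of all. The MEF2 motif CTATTTA was in 0 of 70, which allows up to 5.20% by the Wilson interval, against 3.08% of all and 1.85% of CpG-rich promoters. Atp5k and Atp5l each held the NRF1, ERR and ETS motifs. Within the printed bases, Cox6a1 held the NRF1, ETS and SP/KLF motifs and Cox8a the CREB/ATF motif, and both had no promoter peak, while Cox7c held none of the 8 and had the strongest peak of complex IV. A match is a description of letters and not a bound site.

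Genes that work with the complexes had promoter peaks at like or higher shares. Assembly factors, which build the complexes without staying in them, had one at 46 of 50 genes (92.0%, 81.2 to 96.8%), with Cox10 (15.12) and Ndufaf4 (13.40) highest and Ndufaf2, Ndufaf6, Nubpl and Sco2 without. Electron carriers and coenzyme Q synthesis genes had one at 11 of 15 (73.3%), with Coq7 (10.65) and Coq6 (8.24) highest. Both cytochrome c genes, Cycs and the testis form Cyct, had none, and neither had Cyc1, the cytochrome c1 of complex III, or Coq4. The window of Cycs and that of Sco2 touch places with absent numbers.

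Regulators of mitochondrial genes had a promoter peak at 15 of 20 genes (53.1 to 88.8%). Tfb2m, a factor of mitochondrial transcription, was at 13.05, and Gabpb1 and Yy1 were both at 11.68. Nrf1 was at 10.28 and the coactivator Ppargc1a at 7.37. The estrogen-related receptors Esrra, Esrrb and Esrrg, the lipid receptor Ppara and the muscle regulator Perm1 had none.

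Citric acid cycle genes had one at 12 of 13 (92.3%), led by Ogdh (15.64) and Dlst (10.39), with none at Idh3b, whose window touches a place with absent numbers. Glycolysis genes had one at 17 of 18 (94.4%), led by Pfkm (12.11) and then Ldha and Eno1 (both 11.68), with none at Aldoc. Muscle energy genes had one at 3 of 10 (10.8 to 60.3%), an interval that holds the 44.3% of all genes, namely Slc25a4 (9.96), Eno3 (8.76) and Pgam2 (4.36). The creatine kinases Ckm and Ckmt2, myoglobin (Mb), Pygm, Fabp3, Casq1 and Atp2a1 had none. Of the 10 muscle energy genes 8 were not CpG-rich, and 2 of these 8 had a promoter peak, near the 21% of all such genes.

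Ribosomal proteins served as other large protein complexes. Mitochondrial ribosomal proteins had a promoter peak at 71 of 78 genes (91.0%, 82.6 to 95.6%) with a median fold enrichment of 6.94 (6.51 to 7.39), led by Mrpl50 (18.14) and Mrpl3 (16.41). Mrpl11, Mrpl47, Mrpl53, Mrps12, Mrps2, Mrps27 and Mrps6 had none. Cytosolic ribosomal proteins had one at 69 of 77 (89.6%, 80.8 to 94.6%) with a median of 8.43 (7.80 to 9.10), led by Rpl31 (21.73) and Rps15 (19.00). Rpl10l, Rpl13a, Rpl3, Rpl32l, Rpl39l, Rpl3l and Rps10 were among those without. Of these ribosomal genes without a peak, Mrpl47, Mrpl53, Mrps12, Rpl13a and Rpl3 were among those at places with absent numbers. The intervals of the shares overlap with that of oxidative phosphorylation genes, and so do those of the median fold enrichments (6.51 to 8.67).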

How the data were processed

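Per the methods, the authors aligned CUT&RUN read pairs to mm10 with bowtie, removed reads from listed problem regions and from an amplified stretch by Col19a1, and called peaks against IgG. Their methods name MACS1.4 and the submitters' processing notes name BWA and MACS2, so the caller's release is uncertain. The number in the peak names assigns the list to MCP H3K27ac replicate 5. Each peak of the deposited list has a score, a fold enrichment (a ratio of the scaled fragments plus 1 to the IgG background plus 1), the -log10 p and -log10 q of the summit, and the summit offset (another whole number, in bp). Whole fragment numbers over the summit were recovered from the fold and -log10 p with 1 scaling factor. A unique whole number within 0.01 was found at 97.2% of the peaks, and the H3K27ac library was 1.13 times as deep as the IgG library. These numbers are inferred and are not read counts.

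Start sites came from RefSeq on GRCm38.p6, which has the coordinates of mm10, with 26906 start sites. A promoter peak overlapped 2 kb either side of a start site by at least 1 bp, and the strongest was the one with the highest fold enrichment. Shares are given with Wilson 95% intervals, differences with Newcombe intervals and medians with binomial intervals. Intervals treat genes as independent draws, which they are not strictly. The steps were run in Python 3.11.15 with pandas 2.3.3 and scipy 1.17.1 and tested on simulated data. Alternatives were a -log10 q of at least 5, the strongest 25% of the peaks, a window of 1 kb, the summit in the window, 1 start site per gene, and leaving out shared windows, chromosomes 1, 6, 11 and 15, or places with absent numbers.

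The group and the gene lists were chosen with earlier results of these data known. Named were the genes without a promoter peak, those among the 10 of highest fold enrichment, the highest and lowest of each complex, the isoforms and paralogs, the genes on chromosome X, examples with shared windows, and for other lists the 2 highest genes and those without a peak where 12 or fewer. Core, F1 and c subunits, the regulators Nrf1 and Ppargc1a, and genes of high background, and Atp5k and Atp5l among the motif matches were named after their values were seen. Some items are not reported here by name, and counts include them.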

Additional observations from a re-analysis of the deposited data

How the results depend on the processing

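No paired analysis was possible because a single library was used. Of 97 values recomputed under the alternatives, 86 stayed within their interval or within 1.5 times the count, and 11 moved. Only the difference from other genes could reverse direction, and it did not. The share of oxidative phosphorylation genes with a promoter peak lay between 55.2% and 91.0%, and its difference from other genes between 20.2 and 45.5 percentage points. With the strongest 25% of the peaks (31097 peaks) the share was 55.2%, that of complex I 52.5% and that of complex V 58.8%, and fewer genes of any kind had a peak (28.4% of the others). Without genes at absent numbers complex III was at 100%, since Uqcr11 drops out. Both remaining alternatives were chosen after seeing the data. Among CpG-rich start sites the share was 91.0%, the difference 20.2 points, complex III at 100% and complex IV at 77.8%. Without restricted isoforms, Ndufb4b and Ndufb4c, the share was 89.6%, the difference 45.5 points and complex IV at 81.8%. The counts of 0 muscle isoforms and 1 ubiquitous paralog were the same in each alternative that was run on them. These alternatives only drop peaks, start sites or genes or narrow the window, so a count of 0 could not rise and was not tested. Without genes at absent numbers, the count of muscle isoforms was 0 of 1. The intervals of complexes IV and V overlapped in 7 of 10 alternatives. Depth limits the precision of single genes, since 40 of the 70 strongest promoter peaks had fewer than 20 fragments.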
